A study of Mus musculus with 42 samples.

Results

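The genes described here are the 7 MHC class II genes H2-Aa, H2-Ab1, H2-Eb1, Cd74, Ciita, H2-DMa and H2-DMb1, taken by symbol from the 21884 protein-coding genes of the mouse annotation, and all 7 were measured. They were followed in bone marrow-derived macrophages (BMDM) from wild-type (WT) mice and from mice lacking the nuclear receptor Nur77 (Nur77-KO), by ChIP-seq of RNA polymerase II (Pol II) and of histone H3 acetylated at lysine 27 (H3K27ac). The question of the design is how the loss of Nur77 changes transcription and chromatin at rest and during an inflammatory response. Marrow came from male C57Bl6/J mice aged 6 to 12 weeks, and was grown for 7 days in medium with 15% L929-conditioned medium. The 6 groups were WT and Nur77-KO cells left untreated (0 h) or given 100 ng/ml lipopolysaccharide (LPS), a bacterial cell wall component, for 1 h or 18 h. Each group had 3 libraries per antibody and 1 input library, 42 libraries in all. Per the methods of the study, the KO lacks Nr4a1, which encodes Nur77, in the whole body, after crossing floxed mice to a CMV-Cre line. The genotype label of the KO libraries names only Cre, although, per the methods, the KO mice used no longer expressed it. The labels do not say that the 3 libraries of a group came from separate mice or cultures. The methods of the study call its ChIP-seq replicates biological, without saying whether they were separate mice or cultures. The p-values therefore measure only the spread between these libraries, whose source is not stated.

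MHC class II molecules present peptides from endosomes to CD4+ T cells. H2-Aa with H2-Ab1, and an E alpha chain with H2-Eb1, form the alpha-beta dimers, though in C57BL/6 mice the E alpha gene is defective and the E dimer is not displayed. Cd74, the invariant chain, occupies the peptide groove and guides the dimer to endosomes, where the H2-DM heterodimer of H2-DMa and H2-DMb1 exchanges its last fragment for peptide. Ciita is the coactivator that switches the whole family on: it binds no DNA itself and is recruited to the X and Y boxes of class II promoters by the RFX, CREB and NF-Y factors. Macrophages make little class II at rest and more after interferon-gamma.

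The genes lie in 3 places of the mm10 genome (GRCm38, GENCODE vM21 annotation). Ciita (ENSMUSG00000022504) spans chr16:10480059-10528418 and Cd74 (ENSMUSG00000024610) spans chr18:60803848-60812652, both on the plus strand. The minus-strand gene Dexi overlaps the last 25888 bp of Ciita.

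The other members share chromosome 17. H2-DMa (ENSMUSG00000037649) lies at chr17:34119541-34139101 and H2-DMb1 (ENSMUSG00000079547) at chr17:34153072-34160230, both on the plus strand. Further along, H2-Ab1 (ENSMUSG00000073421, plus) spans chr17:34257689-34269419, H2-Aa (ENSMUSG00000036594, minus) chr17:34282744-34287823 and H2-Eb1 (ENSMUSG00000060586, plus) chr17:34305867-34316674. The annotated bodies of H2-Ab1 and H2-DMa begin 5520 bp and 16087 bp before the start of their principal transcript. The body of H2-DMa overlaps that of Brd2, a neighbour carrying much Pol II, by 3094 bp. ChIP-seq does not resolve strands, so overlapping genes share tags.

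Promoters of 3 class II genes from RefSeq (GRCm38.p6, 250 bases before the start, in the direction of the gene) are shown because the X and Y boxes are where Ciita acts on its targets. Capitals mark the core letters searched, GNAACT for the X box and TGATTGG for the Y box.
H2-Aa, chr17:34287824-34288073, minus strand: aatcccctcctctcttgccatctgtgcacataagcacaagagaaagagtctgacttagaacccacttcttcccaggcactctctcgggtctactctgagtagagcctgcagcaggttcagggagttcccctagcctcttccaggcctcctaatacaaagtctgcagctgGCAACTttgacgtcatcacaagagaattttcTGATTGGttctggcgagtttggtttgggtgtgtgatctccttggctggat
H2-Eb1, chr17:34305617-34305866, plus strand: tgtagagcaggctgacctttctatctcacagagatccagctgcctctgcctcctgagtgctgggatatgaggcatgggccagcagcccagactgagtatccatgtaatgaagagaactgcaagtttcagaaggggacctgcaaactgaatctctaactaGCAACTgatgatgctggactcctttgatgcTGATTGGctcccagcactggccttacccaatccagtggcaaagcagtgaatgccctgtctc
H2-DMb1, chr17:34152941-34153190, plus strand: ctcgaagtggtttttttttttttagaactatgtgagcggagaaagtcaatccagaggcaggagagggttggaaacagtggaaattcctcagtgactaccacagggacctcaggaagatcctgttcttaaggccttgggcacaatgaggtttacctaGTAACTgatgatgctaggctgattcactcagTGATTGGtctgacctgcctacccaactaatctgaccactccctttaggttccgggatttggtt
The spacing was nearly the same in all 3. The X core began 81 bases before the start in H2-Aa, 91 in H2-Eb1 and 94 in H2-DMb1, and the Y core 50, 61 and 63 bases before it, with 25, 24 and 25 bases between the cores. Of 32851 promoters of the same length, 37.3% held GNAACT and 7.23% held TGATTGG on either strand. An X core followed within 40 bases by a Y core was found in 94 of them, 0.286%. The 2 entries of H2-DMa did not hold these letters, and the letters were chosen with the sequences in view. The promoters of H2-Ab1, Ciita and Cd74 were not examined here.

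Levels are normalised tags, the tags of a library's enriched regions scaled to a library of 10 M tags, shared by overlap over the gene body with 500 bp on either side for Pol II and over 2500 bp on either side of the annotated start for H3K27ac. A value of 0 means that no region passed the search there, not that no read was found. A gene was called changed at an adjusted p under 0.05 (limma over all genes, Benjamini-Hochberg), and log2 changes are on the log2(tags + 10) scale, which understates changes of low genes. The Pol II libraries held 21.7 to 36.1 M tags and the H3K27ac libraries 13.5 to 55.4 M tags. For H3K27ac every KO library was deeper than every WT library of its time. The ranges were 35.0 to 38.8 M against 21.4 to 23.1 M at 0 h. They were 23.6 to 47.5 M against 13.5 to 20.9 M at 1 h, and 31.3 to 55.4 M against 15.0 to 31.1 M at 18 h. The search threshold rose with depth, so depth and genotype cannot be told apart for this mark. Replicates of Pol II correlated across genes at r = 0.985 to 0.993. The KO libraries of H3K27ac were split at 1 h and at 18 h. At 1 h, replicate 1 had a mean r of 0.979 with WT and 0.913 with its own group, while replicates 2 and 3 correlated at 0.904 and 0.905 with WT and at 0.952 with their group. At 18 h, replicates 2 and 3 correlated at 0.981 and 0.980 with WT and at 0.954 with their group, and replicate 1 at 0.909 with WT and 0.915 with its group. At rest each KO library correlated at 0.993 with its group and at up to 0.984 with WT. Which libraries of a split group deviate, and whether their labels are right, was not tested. H3K27ac calls of the members are therefore also given with 1 library left out and with KO replicate 1 alone. Nr4a1 itself had 78.0 ± 8.96 Pol II tags at rest in the KO libraries and 195.3 ± 11.3 in the WT libraries (SD, n = 3), which did not overlap. At 1 h the KO libraries (33.5 to 39.0 tags) lay above WT (23.0 to 30.4), and at 18 h no KO library had a region over Nr4a1 and WT libraries had 0 to 7.46 tags. The deleted part is not marked in the files, so Pol II over the rest of the gene does not check the labels after LPS. H3K27ac at Nr4a1 overlapped between KO and WT at every time, with 61.4 to 84.4 and 68.5 to 85.5 tags at rest, 28.4 to 46.2 and 18.9 to 45.3 at 1 h, and 0 to 6.87 and 6.33 to 22.1 at 18 h.

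In resting macrophages, class II genes carried little Pol II apart from Cd74. Per kilobase of window, WT cells had 41.0 ± 2.57 tags over Cd74, 7.44 ± 2.01 over H2-Aa, 6.12 ± 1.43 over H2-Eb1, 5.84 ± 0.585 over H2-DMb1, 3.32 ± 0.863 over H2-Ab1 and 0.724 ± 0.18 over Ciita (mean ± SD, n = 3). H2-Aa, H2-Eb1 and H2-DMb1 did not differ beyond their spread, while Cd74 stood far above the other chains and Ciita below every other member. H2-DMa had the highest value, 173.6 ± 14.8 tags per kb, but 1 broad Pol II region spans Brd2 and most of H2-DMa, and over its coding span alone the value was 95.02 ± 12.3. The values of H2-DMa are thus not separable from those of Brd2. This holds for H3K27ac too, since its window at the annotated start of H2-DMa lies within Brd2 (chr17:34112023-34122634). In resting WT cells that window held 1660 ± 120.9 H3K27ac tags, against 63.6 ± 7.64 around the principal start of H2-DMa. In bulk chromatin, fewer cells carrying a signal and less signal per cell cannot be told apart.

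Most differences between the genotypes appeared late. After 18 h of LPS, Pol II was higher in Nur77-KO than in WT at 5 of the 7 genes, against 7.56% of the 12795 genes tested. These were Ciita, H2-Aa, H2-Ab1, H2-Eb1 and Cd74, higher by 1.62- to 2.44-fold on the tags + 10 scale. The median log2 change of the 7 genes was 0.79 and that of all genes tested was -0.10. None of the 7 was called lower, against 13.4% of all genes. Among all genes called at 18 h, 36.1% were higher in KO with the tags as deposited. After centring each library on its median the share was 66.4%, the median of all genes was 0.04, and 6 members were called, with H2-DMa in addition.

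**Figure D1:**
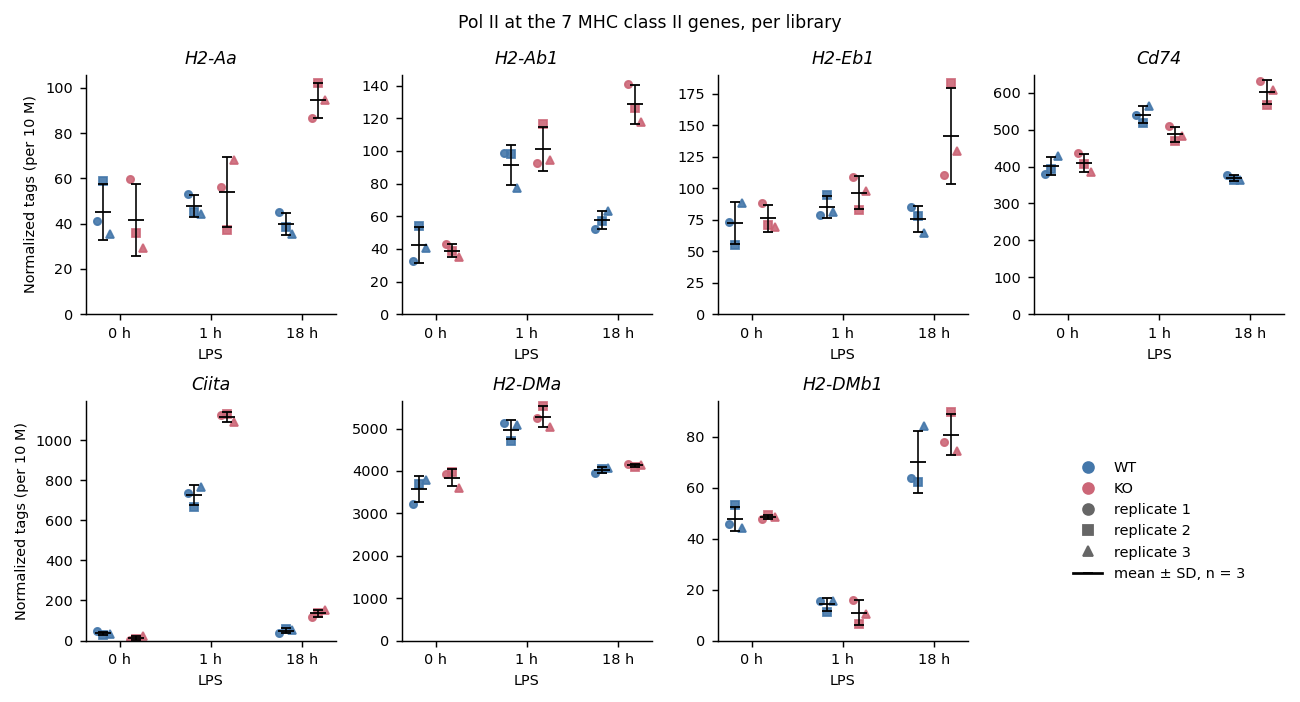
Pol II normalised tags per 10 M (vertical axes, one scale per gene) at 0, 1 and 18 h of LPS in WT and KO BMDM. Each symbol is a library, with the mean ± SD of 3 libraries. At 18 h the KO libraries of Cd74 (566.2 to 633.1) sit above all WT libraries (362.3 to 377.2), and Ciita rises steeply at 1 h in both genotypes.

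Cd74, the invariant chain, had the smallest error of the 5 called genes. At 18 h its Pol II tags were 633.1, 566.2 and 606.4 in the KO libraries and 377.2, 364.9 and 362.3 in WT. All KO libraries lay above all WT libraries, a log2 change of 0.69 ± 0.073 (SE, adjusted p = 2.04e-06). H2-Aa, the A alpha chain, had 86.9, 102.1 and 94.5 tags in KO and 45.1, 38.7 and 35.5 in WT. The lowest KO library lay far above the highest WT library, and the log2 change was 1.07 ± 0.21 (adjusted p = 0.00119).

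H2-Ab1, the A beta chain, had 141.3, 126.6 and 117.8 tags in KO and 52.5, 56.9 and 63.5 in WT. Its groups did not overlap either, with a log2 change of 1.04 ± 0.15 (adjusted p = 6.91e-05). H2-Eb1, the E beta chain, was more variable in KO, at 110.6, 184.0 and 129.3 tags, and lay at 85.1, 78.1 and 64.9 in WT. The change was 0.79 ± 0.18 (adjusted p = 0.00389), and the highest of its KO libraries was far above the other two.

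Ciita, the coactivator, had 116.6, 136.8 and 151.9 tags in KO and 37.7, 59.7 and 52.4 in WT at 18 h. The groups were clearly apart, with a log2 change of 1.29 ± 0.22 (adjusted p = 0.00042). H2-DMa had 4153, 4091 and 4143 tags in KO and 3954, 4050 and 4069 in WT, and H2-DMb1 had 78.2, 89.9 and 74.4 against 63.7, 62.3 and 84.4. Neither peptide-exchange chain was called. H2-DMa differed by 0.04 (95% interval -0.09 to 0.17) without overlap of its groups, and H2-DMb1 by 0.19 (-0.15 to 0.52) with overlap. Over its coding span H2-DMa differed by -0.31 (-0.90 to 0.28).

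The 5 calls at 18 h held when any 1 of the 6 libraries was left out. With the windows restricted to 500 bp around each start, 2 of them (H2-Aa and Cd74) were called, but Ciita had no tags there in any library at 18 h and was not tested, and H2-Ab1 had none in WT. H2-Eb1 had 25.6 ± 3.86 tags there in KO and 19.9 ± 1.12 in WT, and was not called. The inputs differed in the opposite direction. Over H2-Ab1 the WT 18 h input held 62.0 tags, above the WT Pol II mean of 57.6, while the KO 18 h input, with 27554 regions against 64725 to 108461 in the other inputs, held 5.27. Over Ciita the WT 18 h input held 54.1 tags and the KO input 0, and over Cd74 they held 61.4 and 0. Subtracting the input of each group could therefore only widen these differences at 18 h, and its calls are no check of them. The KO means of H2-Aa (94.5), H2-Ab1 (128.6), H2-Eb1 (141.3), Cd74 (601.9) and Ciita (135.1) each lay above the highest of the 6 inputs in the same window, 15.7, 62.0, 51.6, 61.4 and 104.8 tags.

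At rest and after 1 h neither the chains nor Cd74 were called between the genotypes. At 0 h Ciita alone was called between the genotypes: it was lower in KO, against 2.72% of all genes called lower. Its tags were 5.18, 6.25 and 22.7 in KO and 46.0, 29.9 and 31.3 in WT, without overlap, but the resting KO input, at 51.9 tags, lay above all of them and the WT input was at 15.7. The log2 change was -1.17 ± 0.22 (adjusted p = 0.0027), and it was -0.56 (adjusted p = 0.381) over the coding span. No member was called higher at 0 h, against 4.18% of all genes. The intervals of the 6 other members at 0 h ran from -0.56 to 0.46.

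At 1 h, Ciita was the only member called higher, against 38.1% of all genes, and none was called lower, against 7.49%. Its tags were 1126, 1132 and 1088 in KO and 738.3, 668.4 and 766.1 in WT. The KO libraries lay well above WT, a log2 change of 0.62 ± 0.22 (adjusted p = 0.0309) beside a median of 0.24 over all genes. With each library centred on its median, the change was 0.37 and was not called (adjusted p = 0.249), and H2-DMa, H2-DMb1 and Cd74 were called lower. That centring moved the share of calls that were higher from 83.6% to 42.0% and the median of all genes from 0.24 to -0.01. The change of Ciita was also not called when any KO library or WT replicate 1 or 2 at 1 h was left out (adjusted p = 0.0566 to 0.0904), and without KO replicate 1 H2-DMb1 was called lower. Cd74 was lower in all KO libraries at 1 h (509.7, 469.1 and 483.1 tags) than in all WT libraries (540.2, 518.4 and 563.6), but its log2 change of -0.15 was not called (adjusted p = 0.111).

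**Figure D2:**
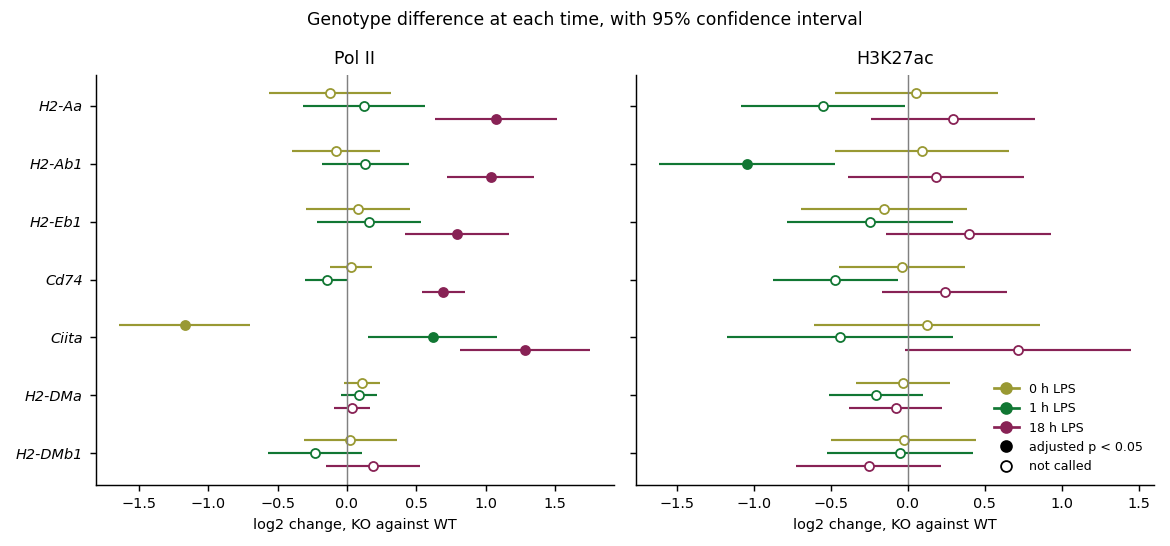
Log2 change of KO against WT (horizontal axis) for each gene at 0, 1 and 18 h of LPS, for Pol II (left) and H3K27ac (right), with 95% confidence intervals. Filled points have an adjusted p under 0.05: for Pol II 5 genes at 18 h and Ciita at 0 and 1 h, and for H3K27ac only H2-Ab1 at 1 h.

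LPS itself acted on the genes in different ways. In WT cells at 1 h, Ciita rose by 4.02 ± 0.22 on the log2 scale, H2-Ab1 by 0.97 ± 0.15, H2-DMa by 0.48 ± 0.061 and Cd74 by 0.42 ± 0.072, and H2-DMb1 fell by 1.26 ± 0.16. That is 4 genes higher, against 18.6% of all genes, and 1 lower, against 68.4%. The median of all genes was -0.82, and centring moved the share of calls that were higher from 21.4% to 49.4% in WT and from 24.9% to 48.6% in KO. H2-DMb1 went from 45.6, 53.1 and 44.3 tags to 15.7, 11.3 and 15.5 in WT, while H2-Aa lay between 35.4 and 58.9 in all 6 WT libraries of 0 and 1 h.

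In KO cells the same 4 genes were called higher at 1 h, against 20.6% of all genes, and H2-DMb1 lower, against 62.2%. Ciita rose there by 5.81 ± 0.22, H2-Ab1 by 1.18 ± 0.15, H2-DMa by 0.46 ± 0.061 and Cd74 by 0.25 ± 0.072. H2-DMb1 fell by 1.51 ± 0.16, from 47.6, 49.3 and 48.6 tags to 16.0, 6.34 and 10.3. With centring, H2-Aa and H2-Eb1 were also called higher in both genotypes, 6 members in each. With quantile normalisation these were called higher too, H2-DMa was called lower (-0.19 in WT and -0.14 in KO), and the fall of H2-DMb1 was called in KO but not in WT. H2-DMa was not called in either genotype over its coding span, and H2-Ab1 not in WT with inputs subtracted. Within 500 bp of the starts, H2-Ab1 in both genotypes and Ciita in WT had too few tags to be tested.

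By 18 h fewer members were above rest in WT than in KO. In WT cells 3 genes were above rest, H2-Ab1 (0.39 ± 0.15), H2-DMb1 (0.47 ± 0.16) and H2-DMa (0.18 ± 0.061), against 33.3% of all genes. Leaving out WT replicate 1 or 3 at 0 h, or WT replicate 3 at 18 h, left 1 of these calls, and leaving out WT replicate 2 at 18 h left H2-DMa and H2-DMb1. Over its coding span H2-Ab1 was at -0.18 against rest, and with inputs subtracted 5 members were called below rest in WT at 18 h (H2-Ab1, H2-Eb1, Ciita, H2-DMb1 and Cd74) and 1 above it, H2-DMa. In KO cells 6 genes were above rest, all but H2-DMa, against 28.1% of all genes: Ciita by 2.85 ± 0.22, H2-Ab1 by 1.502 ± 0.15, H2-Aa by 1.06 ± 0.21, H2-Eb1 by 0.79 ± 0.18, H2-DMb1 by 0.63 ± 0.16 and Cd74 by 0.54 ± 0.072. These 6 calls held without any 1 of the KO libraries. From rest to 18 h Ciita in WT went from 35.7 to 49.9 tags on average, and in KO from 11.4 to 135.1.

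The test of the difference between these responses called 4 genes at 18 h, against 4.86% of all genes. The LPS response was larger in KO by 2.46 ± 0.32 for Ciita (adjusted p = 5.01e-05), 1.19 ± 0.30 for H2-Aa (0.0117), 1.11 ± 0.21 for H2-Ab1 (0.0017) and 0.67 ± 0.10 for Cd74 (0.000275). For H2-Eb1 the difference of 0.71 ± 0.25 was not called (adjusted p = 0.0708). It was called with centring or quantile normalisation, and without KO replicate 1 at 18 h or WT replicate 2 at 0 h. H2-Aa was not called over its coding span, and within 500 bp of the starts no member was called, Ciita not being tested there. At 1 h only Ciita was called, at 1.79 ± 0.32 (adjusted p = 0.000974), against 14.2% of all genes, and over the coding span it was not (1.08 ± 0.45, adjusted p = 0.13). With centring, the share of all calls that were larger in KO went from 32.8% to 63.6% at 18 h and from 77.1% to 33.5% at 1 h. The value of Ciita contains the low resting level of Ciita in KO, since both responses are taken from rest.

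Along Ciita, the Pol II regions were broad at 1 h and narrower at 18 h. At 1 h the strongest region of a library was 7.08 to 20.4 kb long, and the tags of a region are shared evenly over its length, so values by stretch also depend on where regions begin and end and do not place the reads. The annotation gives starts at 0, 8.22 and 9.72 kb, the principal transcript using that at 8.22 kb, and Ciita is known to have several promoters used in different cell types. Shared in this way, at 1 h the stretch from 8 to 24 kb was given 786.3 ± 55.9 tags in KO and 539.1 ± 24.9 in WT, and the first 8 kb 300.5 ± 62.9 and 155.0 ± 17.7. At 18 h the stretch from 8 to 24 kb was given 106.4 ± 20.3 tags in KO and 32.2 ± 7.83 in WT, and the stretch from 24 to 50 kb, which runs just past the end of the gene, held 0 to 6.45 in KO and 0 to 5.72 in WT. Within 500 bp of the principal start, KO libraries had 17.8 ± 0.80 tags at 18 h and WT libraries 3.99 ± 4.62. The first start had 0 tags in all libraries of both genotypes at rest and at 18 h. The strongest KO region ran from about 6.3 to 11.6 kb in replicate 1 and was 5.03 to 5.45 kb long in the 3 libraries, while the strongest WT regions were 1.02 to 1.94 kb long.

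**Figure D3:**
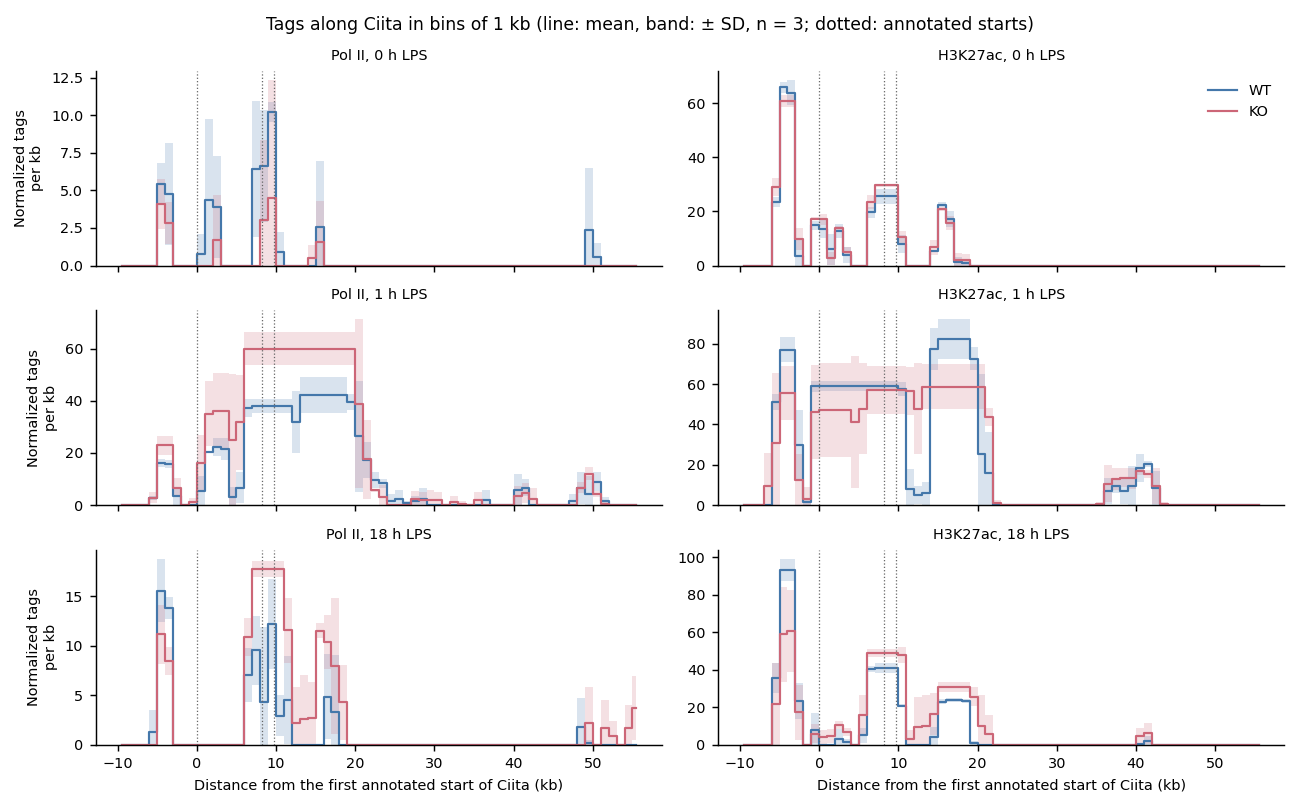
Normalised tags per kb in bins of 1 kb (vertical axes) by distance from the first annotated start of Ciita (horizontal axis, kb), for Pol II (left) and H3K27ac (right) at 0, 1 and 18 h, with the mean (line) and SD (band) of 3 libraries. Dotted lines mark the starts at 0, 8.22 and 9.72 kb. Tags are spread evenly within each enriched region, which makes the profile stepped. The broad regions of 1 h do not place the reads inside them. The strongest of these were 7.08 to 20.4 kb long for Pol II and 9.1 to 23 kb for H3K27ac.

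Tested as merged regions over all of the genome, 4 of the 19 Pol II regions tested within 10 kb of the genes were higher in KO at 18 h by more than 1 on the log2 scale, against 3.68% of all regions. Of these, 1 passed the filter on tags only through KO, where it is high, and is given without its test. The count of 4 includes it, and the share over all regions was taken with the same filter. The region over Ciita, chr16:10479792-10503902, differed by 1.32 ± 0.22 (adjusted p = 0.000337). The region over the body of H2-Ab1, chr17:34260819-34271620, differed by 1.01 ± 0.14 (adjusted p = 5.82e-05), with 170.4, 139.5 and 136.5 tags in KO and 73.9, 68.0 and 63.5 in WT. Over the 3' end of H2-Aa and beyond it, towards H2-Ab1, the region chr17:34278835-34283884 held 36.7, 43.6 and 50.3 tags in KO and 6.19, 6.41 and 8.20 in WT. It had the widest gap of the 4, with a log2 change of 1.66 ± 0.20 (adjusted p = 9.78e-06). At rest its groups were already apart, with 20.8, 34.1 and 23.3 tags in KO and 15.4, 14.7 and 18.0 in WT. All WT libraries of 18 h lay below those of rest. Upstream of H2-Aa, chr17:34291434-34292548 had 14.3, 11.0 and 18.0 tags in KO and 0, 6.83 and 0 in WT, and is the region that passed only through KO. The H2-Ab1 region fell short of the threshold when KO replicate 1 or WT replicate 3 was left out (log2 change 0.92 and 0.97).

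H3K27ac, deposited at promoters and enhancers in use, showed fewer calls between the genotypes than Pol II. At 0 h no member was called, against 0.771% of all genes, and none had an unadjusted p under 0.05. At 18 h no member was called, against 3.2% of all genes, and again none had an unadjusted p under 0.05. The largest log2 change at 18 h was that of Ciita, 0.71 (95% interval -0.02 to 1.45, adjusted p = 0.267), with 12.4, 28.1 and 17.0 tags in KO and 17.3, 0 and 9.11 in WT. No member was called at 18 h when any 1 of the 6 libraries was left out. This keeps at least 1 of KO replicates 2 and 3, which correlated better with WT at 18 h than with their own group. With KO replicate 1 alone, whose spread is then taken from the other groups, H2-DMb1 was called lower in KO (-0.88 ± 0.22, adjusted p = 0.00705), with 66.9 tags in that library, 155.1 and 120.5 in KO replicates 2 and 3, and 127.7, 138.1 and 127.9 in WT. With centring, the share of calls over all genes that were higher in KO went from 60.4% to 42.6% at 0 h, from 60.1% to 45.2% at 1 h and from 29.7% to 52.7% at 18 h.

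At 1 h, 1 member was called, H2-Ab1, which was lower in KO, against 7.3% of all genes called lower. Its tags were 30.0, 12.3 and 11.5 in KO and 38.1, 63.5 and 37.4 in WT. All KO libraries lay below WT, replicate 1 closest to it, and the log2 change was -1.04 ± 0.27 (adjusted p = 0.018). The window lies at the annotated start, and at the principal start the change was -0.65 ± 0.22 and not called (adjusted p = 0.0524), nor was it with a common density floor or with inputs subtracted. H2-Aa (-0.55) and Cd74 (-0.47) had unadjusted p under 0.05 and were not called. Without KO replicate 1, 3 members were called lower: H2-Ab1, H2-Aa and Cd74. Without KO replicate 2 or 3 or WT replicate 2, no member was called. With KO replicate 1 alone, no member was called either, and H2-Ab1 was at -0.46 ± 0.33 (adjusted p = 0.697). The call at 1 h thus rests on KO replicates 2 and 3. Cd74 shows the split, with 408.0, 222.0 and 217.4 tags in the KO libraries and 351.5, 354.9 and 435.3 in WT.

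**Figure D4:**
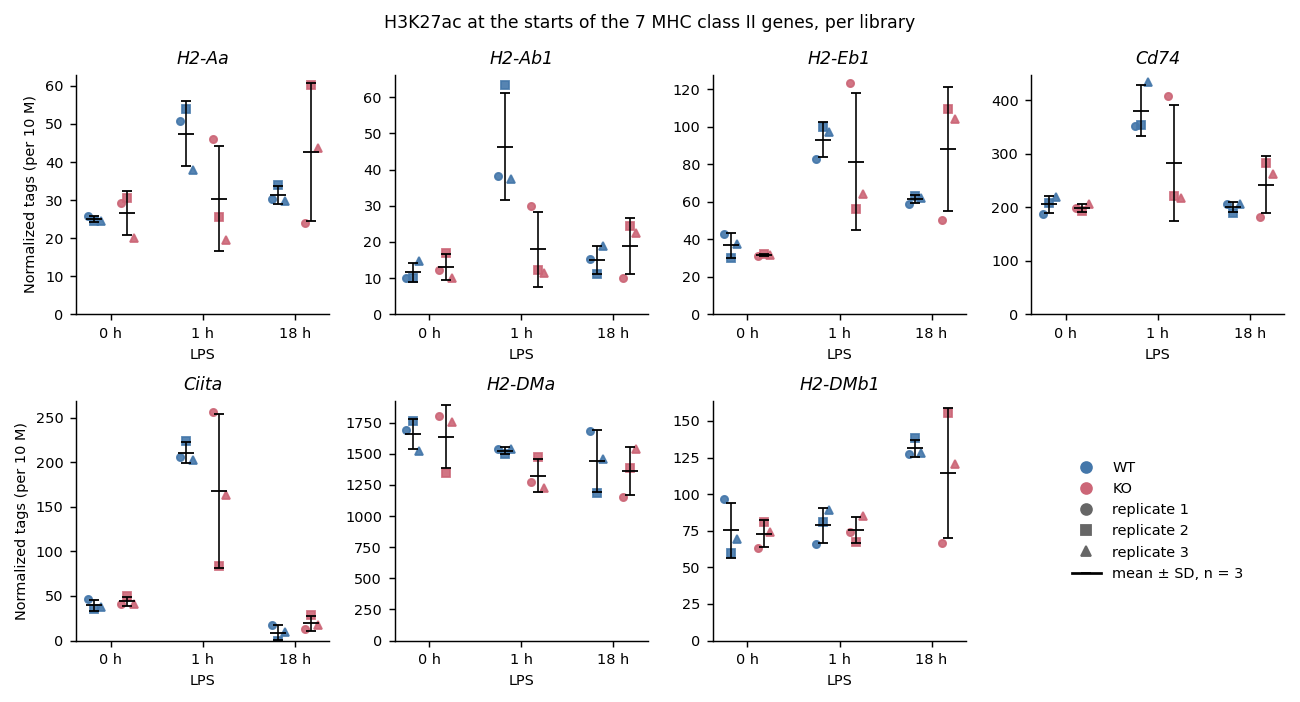
H3K27ac normalised tags per 10 M within 2500 bp of the annotated start (vertical axes, one scale per gene) at 0, 1 and 18 h of LPS in WT and KO BMDM. Each symbol is a library, with the mean ± SD of 3 libraries. At 1 h KO replicate 1 lies with the WT libraries for several genes, for example at 408.0 tags over Cd74 against 222.0 and 217.4 in the other KO libraries. The window of H2-DMa lies within Brd2.

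In WT cells LPS raised H3K27ac at 5 members at 1 h, against 25.3% of all genes: Ciita by 2.16 ± 0.35, H2-Ab1 by 1.36 ± 0.27, H2-Eb1 by 1.15 ± 0.25, Cd74 by 0.85 ± 0.19 and H2-Aa by 0.71 ± 0.25. The call of H2-Aa was lost when any 1 of these 6 libraries but WT replicate 3 at 1 h was left out. In KO cells it raised 2, against 20.4% of all genes: Ciita by 1.59 ± 0.35 and H2-Eb1 by 1.06 ± 0.25, and Cd74 was added without KO replicate 2 or 3 at 1 h. The difference between the responses was not called for any member at 1 h, against 0.527% of all genes. There, H2-Ab1 had an unadjusted p under 0.05 (-1.13 ± 0.38, adjusted p = 0.135), and without KO replicate 1 at 1 h, H2-Ab1 and Cd74 were called.

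At 18 h of LPS, H2-DMb1 was higher than at rest in WT (0.75 ± 0.22), 1 member against 23.5% of all genes. Ciita was lower (-1.51 ± 0.35), 1 member against 26.4%. In KO, H2-Eb1 was higher (1.17 ± 0.25), 1 member against 18.4%, and Ciita lower (-0.92 ± 0.35), 1 member against 34.2%. The call of H2-DMb1 was lost without WT replicate 2 at 0 h, and that of Ciita in KO was lost when any 1 of the 6 KO libraries but replicate 2 at 18 h was left out. That of Ciita in KO was also lost with a pseudocount of 1, centring, quantile normalisation or inputs subtracted. With inputs subtracted H2-DMb1 was not called in WT either. With KO replicate 1 alone at 18 h, H2-Eb1 was not called in KO (0.53 ± 0.29, adjusted p = 0.146) and Ciita was (-1.26 ± 0.49, adjusted p = 0.0468). These values of Ciita are from the window at its first start. Around the principal start 8.22 kb downstream, H3K27ac rose at 18 h by 0.80 ± 0.11 in WT and 0.93 ± 0.11 in KO. There the KO libraries had 242.3 ± 9.23 tags at 18 h and WT 188.6 ± 5.37, without overlap, and the genotype difference of 0.34 was not called (adjusted p = 0.103). The difference between the 18 h responses was called for no member, against 0.622% of all genes, and no member had an unadjusted p under 0.05. With KO replicate 1 alone at 18 h, it was called for H2-DMb1 (-0.85 ± 0.27, adjusted p = 0.0361). Centring moved the share of higher calls over all genes from 35.0% to 45.3% for 18 h of LPS in KO, and from 18.8% to 35.1% (1 h) and 26.7% to 58.6% (18 h) for the difference of the responses.

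Of the 22 H3K27ac regions tested near the genes, 5 were lower in KO at 1 h, against 4.45% of all regions. Of these, 1 passed the filter on tags only through WT, where it is high, and is given without its test. The count of 5 includes it, and the share over all regions was taken with the same filter. The one with the most tags was centred at -7459 bp from the annotated start of H2-Ab1, chr17:34247922-34252538. It was listed at 0 at rest in all libraries and had 193.3, 209.6 and 184.6 tags in WT at 1 h and 132.1, 55.6 and 65.7 in KO. The KO libraries lay below WT, a log2 change of -1.21 ± 0.24 (adjusted p = 0.00255), and at 18 h both genotypes were lower than at 1 h, at 34.3 ± 4.09 tags in KO and 13.7 ± 4.03 in WT. The region at the annotated start of H2-Ab1, chr17:34256256-34259507, differed by -1.04 ± 0.28 (adjusted p = 0.0131).

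The other 3 lay in the 3' part of H2-Eb1 and beyond. In chr17:34311840-34314559 the WT libraries had 57.4, 47.1 and 46.2 tags and the KO libraries 33.6, 13.2 and 8.31 (log2 change -1.18 ± 0.30, adjusted p = 0.0102). In chr17:34316524-34318297, at the end of the gene, WT libraries had 7.77, 16.0 and 20.1 tags and KO libraries were listed at 0, which is the region that passed only through WT. In chr17:34320732-34323247 the WT values were 52.6, 38.5 and 34.2 and the KO values 29.2, 11.5 and 6.21 (-1.10 ± 0.28, adjusted p = 0.0103). KO replicate 1 was the highest KO library in each region with tags in KO. Leaving out KO replicate 2 or 3 or a WT library brought each of the 4 regions with tags in both genotypes below the threshold at least once. Without KO replicate 1 these 4 were called, with log2 changes of -1.33 to -1.54, and with KO replicate 1 alone none of them was (-0.39 to -0.53). With a pseudocount of 1, chr17:34311840-34314559 and chr17:34320732-34323247 were not called (adjusted p = 0.0876 and 0.1). At 18 h, 1 region of 18 was lower in KO, against 1.11% of all regions: chr17:34164026-34165893, downstream of H2-DMb1, with 5.96, 7.99 and 0 tags in KO and 20.3, 23.5 and 19.9 in WT. Its change was -1.13 ± 0.22 (adjusted p = 0.00362), -0.88 without KO replicate 3 and -0.97 with KO replicate 1 alone.

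Other genes of the pathway were called in both directions or not at all. Of the other class II chains, 3 were tested for Pol II at 18 h (H2-DMb2, H2-Oa and H2-Ob) and none was called, with a median of 0.22. Among 6 neighbours of the class II region (Psmb9, Tap1, Psmb8, Tap2, Brd2 and Btnl2), none was called at 18 h. At 1 h, 3 of the 5 tested were lower in KO, against 7.49% of all genes, the peptide transporter Tap2 by 1.75 ± 0.14 and the immunoproteasome subunits Psmb8 by 0.83 ± 0.13 and Psmb9 by 0.61 ± 0.10.

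Among the factors of the class II promoter complex, RFX, NF-Y and CREB1, none of 7 was higher at 18 h, against 7.56% of all genes, and 1 was lower, against 13.4%, Rfxank (-0.43 ± 0.12), while centring gave 2 higher and 0 lower. At 1 h 3 were higher, Rfxap (0.91 ± 0.11), Nfyc (0.48 ± 0.085) and Rfx5 (0.25 ± 0.087), against 38.1% of all genes, whose median was 0.24. With centring 2 of them were called. Of 10 genes that act upstream of Ciita, 4 were lower in KO at 1 h, against 7.49% of all genes, among them Irf8 (-1.24 ± 0.064) and Irf1 (-0.54 ± 0.081), interferon regulatory factors, and Usf1 (-1.12 ± 0.18), a factor of a Ciita promoter. Ifngr1 (0.37), a receptor chain for interferon-gamma, and Prdm1 (0.26), a repressor of Ciita, were higher, against 38.1%. Irf1 then had 5728 ± 488.4 tags in KO against 8340 ± 344.3 in WT. At 0 h Irf1 (-0.60) was also lower and Ifngr1 (0.31) higher.

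At 18 h the same list held 1 gene higher, against 7.56% of all genes, the kinase Jak2 (0.55 ± 0.071), and 2 lower, against 13.4%, Ifngr1 (-0.61 ± 0.076) and Prdm1 (-0.25 ± 0.071). Irf1 (0.15) and Irf8 (0.02) were not called. With centred libraries the counts were 4 higher and 1 lower at 18 h, and 0 higher and 6 lower at 1 h. For the promoter complex they were 2 higher and 0 lower at 18 h.

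Genes for handling peptide and for T cell costimulation also split at 18 h, when 7.56% of all genes were higher and 13.4% lower. Of 5 endosomal processing genes none was higher and 2 were lower, the cathepsins Ctss (-0.57 ± 0.058), which trims Cd74, and Ctsd (-0.48 ± 0.068). Of 3 turnover genes, Cd83, which protects surface class II from degradation, was higher (0.88 ± 0.074), and March8, a ubiquitin ligase that removes it, was lower (-0.62 ± 0.15). Of 6 costimulatory ligands 2 were higher and none lower. Cd86 had 1224 ± 108.8 tags in KO and 334.0 ± 40.2 in WT (1.84 ± 0.12), and Cd40 1170 ± 6.38 and 660.5 ± 17.2 (0.82 ± 0.097).

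**Figure D5:**
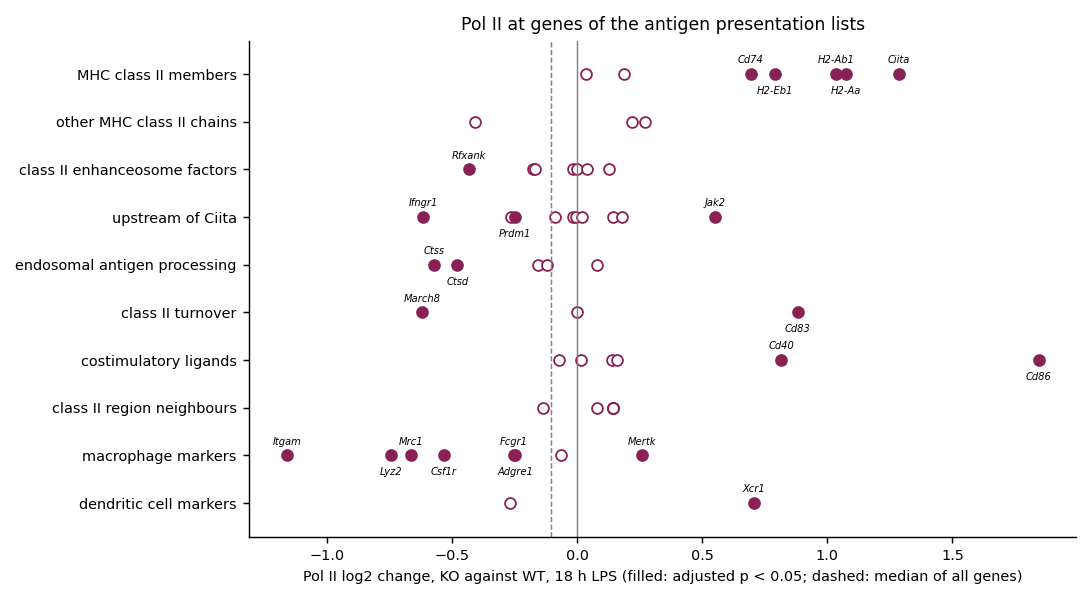
Log2 change of Pol II in KO against WT at 18 h of LPS (horizontal axis) for each tested gene of the lists named on the vertical axis. Filled points have an adjusted p under 0.05 and the dashed line marks the median of all genes, -0.10. The class II genes are shifted to the right (median 0.79), as are Cd86, Cd40 and Cd83, while most macrophage markers lie to the left.

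Macrophage markers were present in every group, and markers that define other cells were partly absent. The 8 macrophage markers all had Pol II in at least 2 libraries of every group, with a summed level of 539.0 to 1416 tags per kb. At 18 h 6 of them were lower in KO, against 13.4% of all genes (4 with centring), among them Itgam (-1.16 ± 0.096), Lyz2 (-0.74 ± 0.11), Mrc1 (-0.66 ± 0.069) and Csf1r (-0.53 ± 0.059), 1 was higher, Mertk (0.26 ± 0.059), and the summed level was 834.9 tags per kb in KO and 1044 in WT. Of 8 dendritic cell markers 2 had tags at 18 h, with a summed level of 59.3 in KO and 34.0 in WT. Nearly all of it was Xcr1, a chemokine receptor gene, with 625.4 tags in KO and 354.6 in WT (0.71 ± 0.21). The summed level at 1 h was 110.2 in KO and 117.3 in WT. Cd209a, Siglech and Dpp4 were at 0 in all groups. The B cell markers Pax5 and Ebf1, the T cell markers Cd3e, Cd3g and Cd8a and the neutrophil markers S100a9, Ly6g, Elane and Mpo had no Pol II region in any group. The other neutrophil marker, S100a8, had 42.5 ± 3.03 Pol II tags in KO and 16.0 ± 0.603 in WT at rest, without overlap, and 12.4 ± 4.25 and 0 at 1 h. H3K27ac summed over the neutrophil markers was 34.2 tags per kb in KO and 15.5 in WT at rest, from 2 genes. At rest, 2 of 6 B cell markers had Pol II in at least 2 libraries, with a summed level of 20.9 tags per kb in KO and 17.1 in WT. H3K27ac summed over the B cell markers was then 43.8 and 56.7. Of 5 T cell markers 2 had Pol II at rest, summing to 15.6 in KO and 16.3 in WT. Summed over each list at 18 h, B cell markers were at 9.32 tags per kb in KO and 11.8 in WT, T cell markers at 12.4 and 14.7, and neutrophil markers at 0 and 1.24. Ms4a1 (-0.65) and Cd3d (-0.34) were lower in KO. The part of the macrophage, dendritic cell, B cell, T cell and neutrophil markers in the class II result was not tested.

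Across the 18 Pol II libraries, 13656 genes were ranked by Pearson correlation of log2 tags with the members, as a description of the libraries, which share 6 group means. Nearest to Ciita were Dnah12 (0.978), Txlnb (0.978), App (0.977), Trps1 (0.977) and Il1b (0.976), genes that rose sharply at 1 h. Il1b, the interleukin 1 beta gene, had 75.7 tags at rest, 6496 at 1 h and 415.6 at 18 h in KO. Nearest to the mean of the 6 other genes were Slc3a2 (0.917), E2f5 (0.914), Il12a (0.907), Kbtbd12 (0.894) and Pwp1 (0.889). Slc3a2, an amino acid transporter chain, had 2074 ± 42.2 tags in KO and 1689 ± 16.7 in WT at 18 h. Among the genes themselves, H2-Ab1 and Cd74 moved most alike of the chains (r = 0.822), while H2-DMb1 went against Ciita (-0.767). Over all members the most alike pair was Ciita with H2-DMa (0.880) and the most opposed H2-DMa with H2-DMb1 (-0.772). The values of H2-DMa are not separable from those of Brd2.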

How the data were processed

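BMDM were profiled in 36 ChIP-seq libraries (Pol II and H3K27ac, 3 per group) and 6 inputs. Skewer trimming, HISAT2 2.1.0 alignment to mm10 and duplicate removal were done by the authors, who searched each library with HOMER. Per the file headers, the deposited signal values are tags of enriched regions normalised to 10 M, found without an input control in windows of 500 bp at a Poisson p of 0.001 and stitched within 1000 bp. Replicates were not pooled. A summed value thus also depends on the length of the gene over which regions were found. Columns of region scores and p-values were not used.

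Tags were shared by overlap over gene windows (Pol II, gene body with 500 bp flanks; H3K27ac, 2500 bp either side of the start) in 21884 protein-coding genes. Whole reads were not recovered, so no count test was run. log2(tags + 10) was fitted with limma 3.58.1 (R 4.3.3; 6 group means over 18 libraries per antibody, trended variance), for genes with tags in at least 2 of 3 libraries of a compared group, with Benjamini-Hochberg adjustment over all genes tested. Merged regions also needed a log2 change beyond 1. The scripts were tested on simulated data and used Python 3.11.15, pandas 2.3.3 and numpy 2.4.6. Promoters came from RefSeq, GRCm38.p6. The rule named the members, up to 4 called genes of each list with the largest changes and the 5 genes most like Ciita and the other members; further list genes were named after their values were seen. Members and lists were chosen with earlier results of these data known. By the median over pairs, same-numbered replicates did not deviate together (median r 0.009 for Pol II and -0.001 for H3K27ac), so no pairing was used. Single pairs ranged from -0.076 to 0.108 for Pol II and from -0.424 to 0.081 for H3K27ac. Other pseudocounts, filters, scalings, windows, input subtraction and left-out libraries were tried. Some genes of the lists are not reported here by name.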

Additional observations from a re-analysis of the deposited data

Results flagged for a closer look

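The response of Pol II to LPS differed between Nur77-KO and WT at 4 of the 7 class II genes, by the test of the difference itself. At 1 h the response of Ciita was larger in KO by 1.79 on the log2 scale, 1 member against 14.2% of all genes. Over the coding span it was not called at 1 h. At 18 h the response was larger in KO by 1.19 for H2-Aa, 1.11 for H2-Ab1, 0.67 for Cd74 (0.665 before rounding) and 2.46 for Ciita. These are 4 members, against 4.86% of all genes. Within 500 bp of the starts none was called at 18 h, Ciita not being tested there, and over the coding span H2-Aa was not called. Both values of Ciita include its lower resting level in KO, 11.4 against 35.7 tags. The resting KO input lay above every resting Pol II library in this window. Groups of 3 libraries were not tested for single outlying values.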

How the results depend on the processing

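The 5 Pol II calls at 18 h (KO against WT) numbered 5 or 6 under every alternative but 1, though input subtraction, by the inputs' values, could only widen these differences. Within 500 bp of the starts there were 2, and the difference of the 18 h responses was called for 0 members (4 as reported). That alternative also gave 0 for KO against WT at 0 h (1 as reported) and 0 for WT at 18 h against rest (3). Ciita had no tags there at 0 h or 18 h and could not be called. H2-Ab1 had none in either genotype at 0 h and none in WT at 18 h. These windows lie at the annotated starts, which are 5520 bp (H2-Ab1), 8220 bp (Ciita) and 16087 bp (H2-DMa) before the principal start. For KO against WT at 1 h (1 as reported), 0 were called with a pseudocount of 1, with a common density floor and over the coding span, 3 after centring, 2 after quantile normalisation and 0 to 1 with 1 library left out. Over the coding span, an alternative chosen after seeing the data, 0 were called at 0 h, 1 for WT at 18 h against rest and 0 for the difference of the 1 h responses (1 as reported), and centring gave 3 there. Input subtraction gave 2 at 0 h, 6 for WT at 18 h against rest (5 of them lower) and 2 for the difference of the 1 h responses. Leaving out 1 library gave 1 to 3 for WT at 18 h against rest.

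For H3K27ac, KO against WT at 1 h (1 as reported) gave 0 with a common floor, input subtraction and the principal start, and 0 to 3 with 1 library left out. The difference of the 1 h responses gave 0 to 2 with 1 library left out, and KO against WT at 18 h gave 1 with input subtraction. For LPS in WT, input subtraction gave 3 at 1 h (5 as reported). At 18 h in WT (2 as reported) there were 1 with tags required in every library, 4 after quantile normalisation, 1 with input subtraction, 4 at the principal start and 1 to 2 with 1 library left out. In KO, a pseudocount of 1 gave 1 at 1 h and 1 at 18 h (2 each as reported), input subtraction 1 and 4, quantile normalisation 4 at 18 h, and left-out libraries 2 to 3 at 1 h and 1 to 3 at 18 h. With KO replicate 1 alone, 0 were called for KO against WT at 1 h. With KO replicate 1 alone at 18 h, both chosen after seeing the data, 1 member each was called for KO against WT (0 as reported), for LPS in KO (2) and for the difference of the responses (0).

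These values, each called under at least 1 of the settings compared, changed sign. H2-DMa went to -0.17 for KO against WT at 1 h after centring, and after quantile normalisation to -0.19 (WT) and -0.14 (KO) for 1 h of LPS. With input subtraction, WT at 18 h against rest went to -2.01 for H2-Ab1, -1.18 for H2-Eb1, -1.33 for Ciita and -0.78 for H2-DMb1. Over its coding span H2-Ab1 went there to -0.18. At the principal start, H3K27ac at 18 h against rest went to 0.80 (WT) and 0.93 (KO) for Ciita and to 0.75 for H2-DMa in WT. The main H3K27ac window of H2-DMa lies within Brd2. The cause of these changes was not tested. The inputs are 1 library per group and differ in how many regions passed the search.

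With the replicate number as a block, 5 members were called at 18 h, as without it, and the block changed no other count of members. Over all alternatives, 2072 values of single members stayed on their side of the threshold, 141 of them with a change of sign while called under neither setting, 63 gained a call and 64 lost one. A low gene such as Ciita at rest lies near the lowest level at which a region passed, so a 0 there limits little.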
